A study of Mus musculus with 6 samples.

Results

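The 10 genes described here encode the MHC class I antigen presentation machinery and the immunoproteasome: B2m, H2-K1, H2-D1, Tap1, Tap2, Tapbp, Psmb8, Psmb9, Psmb10 and Nlrc5. They were taken by name from the 54532 genes of the deposited count table, and all 10 had enough counts to be tested. Expression was measured by RNA-seq of epididymal white adipose tissue (eWAT), a visceral fat depot, in 3 cachectic and 3 control mice. All 6 were C57BL/6 mice, and the study's methods give males of 6 to 10 weeks of age. The cachectic mice carried a subcutaneous tumor of LLC cells, the Lewis lung carcinoma line from a mouse tumor, and tissue of both groups was taken on day 21. Cachexia was defined by weight loss, and how the control mice were handled is not given in the sources used here. Each library came from the whole fat pad, so it mixed adipocytes with vascular, stromal and immune cells.

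Nearly every cell shows peptides of its own proteins on MHC class I molecules, which CD8 T cells inspect. A class I molecule is a heavy chain, in C57BL/6 mice H2-K or H2-D, bound to beta-2-microglobulin. The peptides are cut by the proteasome and pumped into the endoplasmic reticulum by the TAP transporter, where tapasin helps to load them. Interferon-gamma raises most of these genes and replaces the catalytic subunits of the proteasome by those of the immunoproteasome, while NLRC5 is the transactivator of class I genes.

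The total count per sample was between 14928766 and 18855546, and each of the 3 cachectic libraries was shallower than all 3 control libraries. Counts were scaled with TMM factors and given as CPM, the count of a gene relative to the scaled library total. Values of single mice are listed in the order of replicates 1, 2 and 3, and SE is the standard error of the log2 fold change. In a principal component analysis, the groups lay apart on the leading component, with 57.6% of the variance, and control replicate 1 stood apart on the next one (47.2, against -28.8 and -23.3 for the other controls). The adipocyte markers Lpl and Fabp4 were at 4912 CPM or more in every sample. Of the 16003 genes tested, 2821 (17.6%) passed an adjusted p-value of 0.05 in edgeR's quasi-likelihood test with Benjamini-Hochberg adjustment, 9.0% of all tested genes being higher and 8.63% lower in cachectic mice. Without control replicate 3 this number was 828, and without control replicate 2 it was 1312.

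Of the 10 genes, 1 was higher in cachectic mice (Psmb8) and 0 were lower by the same test, against 9.0% and 8.63% of all tested genes. DESeq2 and limma-voom also called Psmb8 alone. At an unadjusted p-value under 0.05, edgeR gave 2 higher genes, Psmb8 and Psmb10, and 0 lower ones. By p-value, Psmb10 ranked 5275 of the 16003 tested genes, so unadjusted p-values under 0.05 were common among all tested genes. The unadjusted counts given for other lists below stand beside that. The median log2 fold change of the 10 genes was 0.18, beside -0.00 for all tested genes, and single values lay between -0.31 and 0.65. In 5 of the 10 genes (Tap2, Tapbp, Psmb8, Psmb9 and Psmb10) all cachectic mice were above all control mice, and such a separation in this direction was seen in 20.4% of all tested genes. The reverse separation was seen in 0 of the 10 genes and in 20.1% of all tested genes, so that 5 of the 10 genes stood beside 40.5% of all tested genes for either direction. In a bulk sample, a change in the number of cells of a type and a change in the RNA per cell cannot be told apart.

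**Figure D1:**
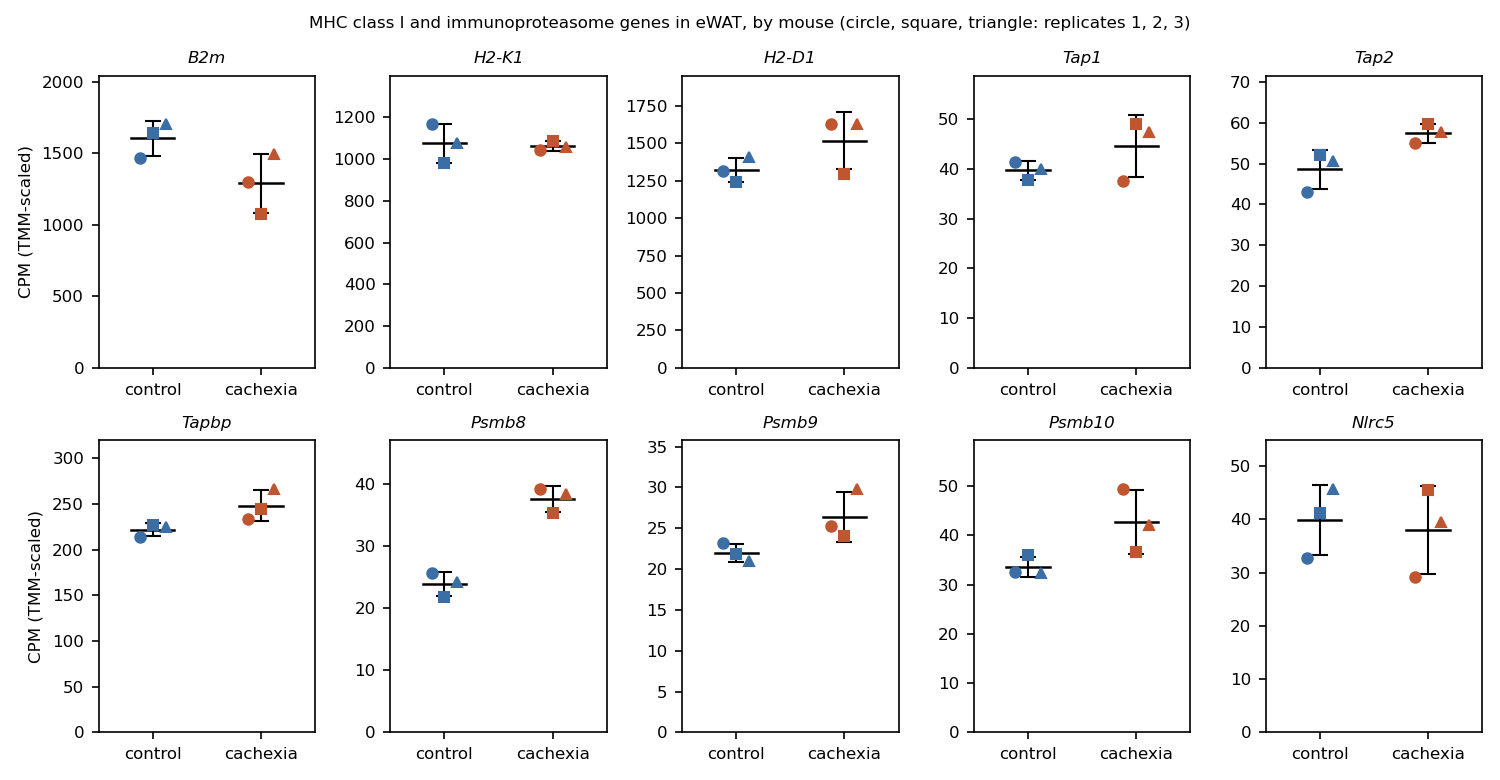
Expression of the 10 genes in CPM (vertical axes, starting at 0) in each control mouse (blue) and cachectic mouse (orange), with the mean and SD (n = 3) in black. The groups are clearly apart in Psmb8, with 21.8 to 25.7 CPM in control mice and 35.3 to 39.3 in cachectic mice, while those of B2m, H2-K1, H2-D1, Tap1 and Nlrc5 overlap.

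The region before the start site of class I genes holds elements that respond to inflammatory signals and to NLRC5. Sequences are shown for the heavy chains and B2m because these 3 genes held most of the counts of the 10 genes and carry such elements. They are from RefSeq (GRCm38.p6), 5′ to 3′ on the gene's strand, and capitals mark matches to the motifs named after them. The window of H2-K1 is chr17:34000348-34000597 on the minus strand and that of B2m is chr2:122147437-122147685 on the plus strand.
H2-K1: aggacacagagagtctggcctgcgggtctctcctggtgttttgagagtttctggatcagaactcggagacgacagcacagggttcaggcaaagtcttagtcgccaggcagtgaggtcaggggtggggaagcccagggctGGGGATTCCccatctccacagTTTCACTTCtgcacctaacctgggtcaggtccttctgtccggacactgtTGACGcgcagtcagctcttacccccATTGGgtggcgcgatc
B2m: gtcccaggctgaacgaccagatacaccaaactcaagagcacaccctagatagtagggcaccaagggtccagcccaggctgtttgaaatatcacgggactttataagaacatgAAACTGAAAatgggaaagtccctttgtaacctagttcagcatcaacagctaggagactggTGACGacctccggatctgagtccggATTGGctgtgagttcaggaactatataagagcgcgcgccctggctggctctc
In H2-K1 the capitals mark an NF-kB-type element (GGGGATTCC), a short interferon-stimulated response element (TTTCNNTTC), a CRE-type element (TGACG) and a CCAAT box read on the other strand. In B2m they mark an interferon-stimulated response element (TTTCNNTTT, here on the other strand), TGACG and a CCAAT box, also on the other strand. No match overlapped another. The part of H2-D1 that holds the leading pair of elements is shown beside the same part of H2-K1, and 29 of the 30 bases were identical. The motifs were chosen after the sequences were seen. These stretches are chr17:35262923-35262952 on the plus strand for H2-D1 and chr17:34000429-34000458 on the minus strand for H2-K1. The H2-D1 stretch lies inside the span of that gene in the deposited coordinates, which begins at 35262730, while the H2-K1 stretch lies outside its gene.
H2-D1: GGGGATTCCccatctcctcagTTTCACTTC
H2-K1: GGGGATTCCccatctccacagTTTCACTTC
Windows of 300 bases around a start site were found for 8 of the 10 genes, all except Tap2 and Nlrc5. Of the 32851 windows of all genes, searched on both strands, 0.25% held GGGGATTCC, which among the 8 genes was in H2-K1 and H2-D1. TTTCNNTTC was in 7.52% of all windows and in the same heavy chain genes, and TTTCNNTTT was in 10.6% and in B2m. TGACG was in 20.8% of all windows and in 5 of the 8 genes (B2m, H2-D1, H2-K1, Psmb9 and Tap1), and CCAAT was in 37.4% and in those 5 and Tapbp. The windows of Tap1 and Psmb9 cover nearly the same DNA, since the genes run apart from start sites 226 bases from each other and the windows share 275 bases. None of the 5 motifs was found in the windows of Psmb8 and Psmb10, which says only that these letters are not in these windows.

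H2-D1 and H2-K1, the classical heavy chains, did not pass the threshold in either direction. H2-D1 (chromosome 17, 35262730 to 35267499, GRCm38, as for all positions here) measured 1312, 1244 and 1407 CPM in the controls and 1628, 1296 and 1626 CPM in the cachectic mice. Cachexia replicate 2 lay among the controls and the other cachectic mice above them. Its log2 fold change was 0.20 (SE 0.19; edgeR, adjusted p = 0.498), with a 95% interval from 0.848-fold to 1.56-fold. H2-K1 (chromosome 17, 33996017 to 34000333) measured 1166, 982 and 1078 CPM in the controls and 1043, 1087 and 1056 CPM in the cachectic mice. All cachectic values fell inside the range of the controls. The log2 fold change of H2-K1 was -0.02 (SE 0.17; edgeR, adjusted p = 0.950; interval 0.753-fold to 1.30-fold), and it was 0.03 when plain library totals were used in place of TMM.

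B2m encodes beta-2-microglobulin, the light chain that heavy chains need to reach the cell surface. B2m (chromosome 2, 122147686 to 122153083) measured 1469, 1643 and 1704 CPM in the controls and 1302, 1079 and 1494 CPM in the cachectic mice. Cachexia replicate 3 was above control replicate 1, so the groups overlapped. The log2 fold change was -0.31 (SE 0.20; edgeR, adjusted p = 0.309), with an interval from 0.583-fold to 1.11-fold. Together B2m, H2-K1 and H2-D1 held between 87.5% and 90.5% of the counts of the 10 genes, and the 10 genes held between 0.407% and 0.480% of all counts of a library.

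The chains were then compared with each other inside each mouse, as ratios of counts per kb of gene length, which do not depend on how libraries are scaled. The two-sided exact permutation test cannot go below p = 0.1 with 3 against 3 mice, and p-values were adjusted over 10 ratios. H2-D1 per B2m came to 0.298, 0.252 and 0.275 in the controls and to 0.417, 0.400 and 0.363 in the cachectic mice. In 3 of 3 cachectic mice the ratio exceeded all controls, by 0.52 on the log2 scale (exact permutation test, p = 0.1, adjusted p = 0.333). H2-K1 per B2m overlapped between the groups, with a log2 difference of 0.31 (exact permutation test, p = 0.2, adjusted p = 0.333). H2-K1 per H2-D1 was 0.758 to 0.879 in control mice and 0.634 to 0.829 in cachectic mice (exact permutation test, p = 0.3, adjusted p = 0.429).

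Reads of heavy chains can fall on more than 1 gene of the family. Of the windows of 150 bases (the read length) in the longest coding transcript of H2-D1, 1.79% were also found in another gene, H2-Q1, and 0 of 1470 windows of H2-K1 were. The summed counts of H2-K1 and H2-D1 were 2396 ± 148 (SD, n = 3) CPM in control mice and 2579 ± 170 (SD, n = 3) CPM in cachectic mice, a log2 difference of 0.11 (exact permutation test, p = 0.3). With H2-Q4, H2-Q6, H2-Q7, H2-T22, H2-T23 and H2-T24 added, the sum was 2743 ± 153 (SD, n = 3) and 3123 ± 191 (SD, n = 3) CPM, a log2 difference of 0.19, with all cachectic mice above all control mice (exact permutation test, p = 0.1, the smallest possible).

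Tap1 and Tap2 encode the paired chains of the peptide transporter, and Tapbp encodes tapasin, which holds the empty class I molecule at the transporter. Tap1 (chromosome 17, 34187553 to 34197225) measured 41.4, 37.7 and 40.0 CPM in the controls and 37.5, 48.9 and 47.4 CPM in the cachectic mice. The low value of cachexia replicate 1 lay below all controls, and the log2 fold change was 0.17 (SE 0.14; edgeR, adjusted p = 0.431). Tap2 (chromosome 17, 34203527 to 34216321) measured 43.1, 52.0 and 50.7 CPM in the controls and 54.9, 59.6 and 57.7 CPM in the cachectic mice. The groups did not overlap, but its log2 fold change of 0.24 (SE 0.12; edgeR, adjusted p = 0.207) did not pass the threshold. Tap1 per Tap2 was 0.4996 to 0.663 in control mice and 0.471 to 0.567 in cachectic mice (exact permutation test, p = 0.6, adjusted p = 0.667).

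Tapbp (chromosome 17, 33915899 to 33929288) measured 214, 227 and 224 CPM in the controls and 233, 244 and 267 CPM in the cachectic mice. All cachectic mice were above all controls by a small margin, and the log2 fold change was 0.16 (SE 0.13; edgeR, adjusted p = 0.429). The interval of the difference ended at 1.404-fold for Tap1, 1.44-fold for Tap2 and 1.38-fold for Tapbp. Tap1 overlaps Psmb9 over 212 bases on the other strand, and Tapbp overlaps Zbtb22 over 3421 bases on its own strand, so reads there can be shared with the neighbour or lost. In a wider list of 9 genes of peptide loading and trimming in the endoplasmic reticulum, 0 passed the threshold in either direction in edgeR, DESeq2 and limma-voom, and 1 was lower at an unadjusted p-value under 0.05 in edgeR. The median log2 fold change of that list was -0.23, and the chaperones Calr (-0.26) and Pdia3 (-0.23) and the trimming enzyme Erap1 (0.18) were among it.

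The immunoproteasome subunits replace their constitutive partners in newly built proteasomes: Psmb8 (LMP7) replaces Psmb5, Psmb9 (LMP2) replaces Psmb6, and Psmb10 (MECL-1) replaces Psmb7. Psmb8 (chromosome 17, 34197721 to 34201454) measured 25.7, 21.8 and 24.3 CPM in the controls and 39.3, 35.3 and 38.4 CPM in the cachectic mice. Every cachectic mouse was well above every control mouse. Psmb8 rose 1.57-fold (interval 1.28-fold to 1.93-fold), a log2 fold change of 0.65 (SE 0.13; edgeR, adjusted p = 0.0142). The adjusted p-value was 0.0650 without control replicate 2 and 0.0713 without control replicate 3, at log2 fold changes of 0.59 and 0.66.

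Psmb10 (chromosome 8, 105935735 to 105938444) measured 32.6, 36.0 and 32.4 CPM in the controls and 49.5, 36.5 and 42.2 CPM in the cachectic mice. The lowest cachectic mouse, replicate 2, was just above the highest control. Its log2 fold change of 0.345 (SE 0.15; edgeR, adjusted p = 0.137, under 0.05 before adjustment) did not pass the threshold. Psmb9 (chromosome 17, 34181988 to 34187764) measured 23.2, 21.8 and 20.97 CPM in the controls and 25.3, 24.1 and 29.8 CPM in the cachectic mice. The groups lay close to each other without overlap, and the log2 fold change was 0.26 (SE 0.14; edgeR, adjusted p = 0.226). Psmb8 was set beside Psmb9 and Psmb10 by ratios chosen after the values were seen. Their p-values, adjusted over 5 ratios, are therefore no independent test. Psmb8 per Psmb9 was higher in cachectic mice by 0.40 on the log2 scale and Psmb8 per Psmb10 by 0.32, each in 3 of 3 mice (exact permutation test, p = 0.1 and adjusted p = 0.1 for each, the smallest possible and above the threshold). For Psmb8 per Psmb10 the lowest cachectic mouse, replicate 1 (0.495), was only just above the highest control, replicate 1 (0.492).

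The constitutive subunits Psmb5, Psmb6 and Psmb7 gave 0 calls in edgeR and in limma-voom, 2 lower genes at an unadjusted p-value under 0.05 in edgeR, and 1 lower gene, Psmb5, in DESeq2. Of the 16003 tested genes, edgeR called 8.63% lower, and DESeq2 called 3884 in either direction. Psmb5 measured 62.4, 59.5 and 62.7 CPM in the controls and 44.9, 50.7 and 48.2 CPM in the cachectic mice, a log2 fold change of -0.36 (adjusted p = 0.0608 from edgeR). Psmb7 measured 56.5, 57.1 and 63.3 CPM in the controls and 51.6, 42.2 and 41.8 CPM in the cachectic mice, a log2 fold change of -0.38 (adjusted p = 0.0808 from edgeR). In Psmb5 and Psmb7 all cachectic mice were below all controls, a separation seen in 20.1% of all tested genes. Psmb6 overlapped, with 83.8 to 96.6 CPM in control mice and 77.6 to 101 CPM in cachectic mice.

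Inside each mouse, Psmb8 per Psmb5 (counts per kb) came to 0.135, 0.120 and 0.127 in the controls and to 0.287, 0.229 and 0.262 in the cachectic mice. It was 2.03-fold higher in cachectic mice, a log2 difference of 1.02 (exact permutation test, p = 0.1, adjusted p = 0.333). Psmb10 per Psmb7 came to 1.155, 1.26 and 1.02 in the controls and to 1.92, 1.74 and 2.02 in the cachectic mice. It was 1.65-fold higher, a log2 difference of 0.73 (exact permutation test, p = 0.1, adjusted p = 0.333). For both pairs the direction was the same in 3 of 3 cachectic mice, and leaving out any sample kept the log2 difference between 0.94 and 1.10 for Psmb8 per Psmb5 and between 0.65 and 0.80 for Psmb10 per Psmb7. Psmb9 per Psmb6 overlapped between the groups, with 0.111 to 0.133 in control mice and 0.128 to 0.159 in cachectic mice (exact permutation test, p = 0.2, adjusted p = 0.333).

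**Figure D2:**
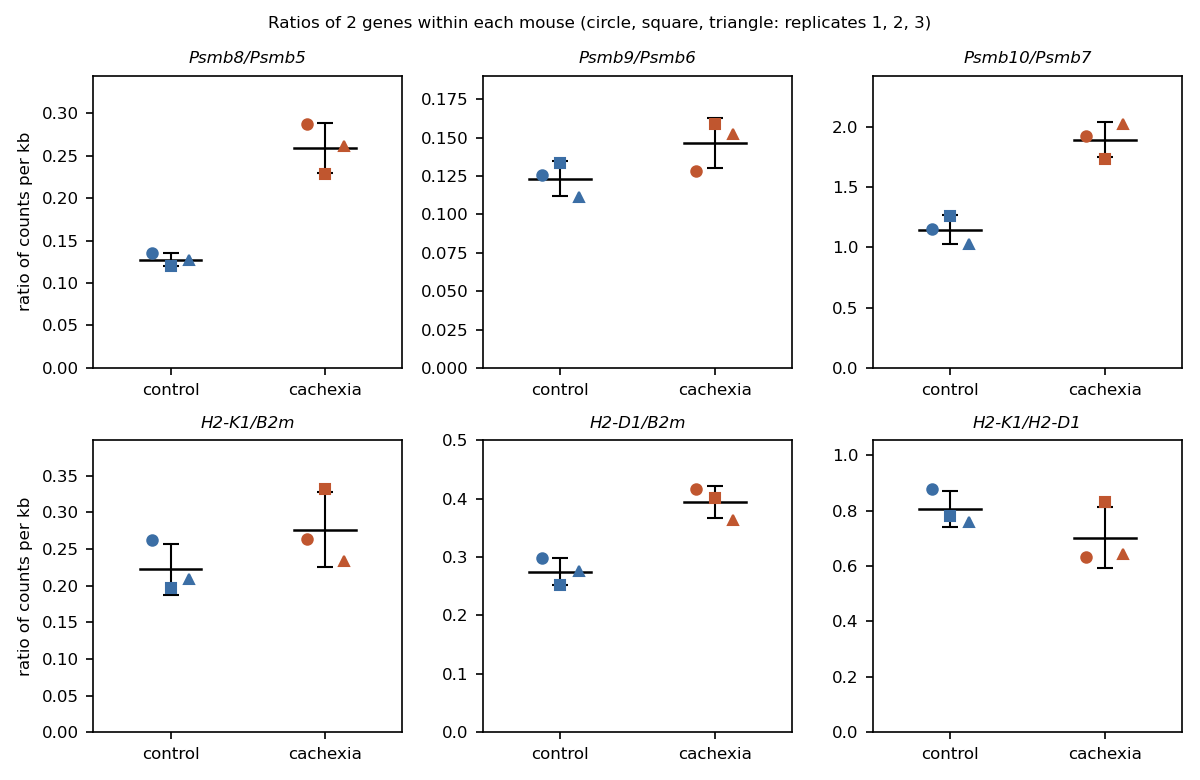
Ratios of the counts per kb of 2 genes (vertical axes, starting at 0) in each control mouse (blue) and cachectic mouse (orange), with the mean and SD (n = 3) in black. Psmb8 per Psmb5, Psmb10 per Psmb7 and H2-D1 per B2m separate the groups, and the other 3 ratios overlap.

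Psme1 and Psme2 encode the PA28 activator, a cap of the proteasome that interferon-gamma also raises. Psme1 was at 90.1 to 103 CPM in control mice and 89.95 to 108 CPM in cachectic mice, and Psme2 at 42.9 to 60.5 CPM and 38.6 to 67.3 CPM, so both overlapped. Their log2 fold changes were 0.05 and 0.19 (adjusted p = 0.836 and 0.619 from edgeR). Psme1 per Psme2 overlapped as well (exact permutation test, p = 0.8, adjusted p = 0.8). Among 9 genes of activators and assembly factors, edgeR and limma-voom called 0, DESeq2 called 1 lower gene, and 1 was lower at an unadjusted p-value under 0.05 in edgeR. Psmb8 lies between Tap1 and Tap2 in the MHC region, and its ratio to Tap2 overlapped between the groups, with a log2 difference of 0.41 (exact permutation test, p = 0.2, adjusted p = 0.333). Psmb9 per Tap1, the pair with the shared start region, also overlapped (log2 difference 0.10, exact permutation test, p = 0.5, adjusted p = 0.625).

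Levels of different genes were set side by side by the deposited FPKM values, which are scaled by gene length. In control mice B2m had 1843 ± 138 (SD, n = 3) FPKM, H2-D1 506 ± 31.96 (SD, n = 3) and H2-K1 407 ± 35.9 (SD, n = 3). Tapbp followed with 66.5 ± 1.92 (SD, n = 3), then Psmb10 with 19.5 ± 1.14, Tap2 with 12.7 ± 1.23, Psmb8 with 8.63 ± 0.733, Tap1 with 7.16 ± 0.357, Psmb9 with 5.94 ± 0.309 and Nlrc5 with 4.64 ± 0.763 FPKM (SD, n = 3 for each). Psmb5 had 67.6 ± 2.06 (SD, n = 3) FPKM and Psmb6 48.3 ± 3.71 (SD, n = 3) and Psmb7 17.0 ± 1.09 (SD, n = 3). In cachectic mice the order of the 10 genes by FPKM was the same. Part of this order turned with the length used: the deposited gene length was equal to the longest coding transcript for B2m (860 bases) and Psmb5 (899 bases) and longer for the other 11 genes compared, for example 2608 against 1619 bases for H2-K1. Per kb of that transcript, a choice made after the values were seen, H2-K1 had 664 ± 57.0 and H2-D1 628 ± 39.0 CPM (SD, n = 3 for each) in control mice, in reverse order and with ranges that overlapped in both groups. Psmb9 had 16.3 ± 0.825, Psmb8 14.7 ± 1.21, Tap2 14.1 ± 1.40 and Tap1 13.4 ± 0.640 CPM per transcript kb (SD, n = 3 for each), so Psmb9 moved from below Tap1 to above Tap2, and each overlapped its neighbour. Psmb7 with 50.9 ± 3.25 (SD, n = 3) stood above Psmb10 with 25.7 ± 1.56 (SD, n = 3), while by FPKM it stood below. By both lengths, in control mice, B2m came before the heavy chains, these before Tapbp, Tapbp before Psmb10 and Nlrc5 last, and Psmb5 and Psmb6 were above the subunits that replace them. The length sets the size of the ratios per kb given above, but not their differences between the groups.

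Nlrc5, the transactivator of class I genes (chromosome 8, 94434356 to 94527272), measured 32.7, 41.2 and 45.7 CPM in the controls and 29.2, 45.5 and 39.4 CPM in the cachectic mice. The groups covered nearly the same range. The log2 fold change was -0.07 (SE 0.20; edgeR, adjusted p = 0.842), with an interval from 0.695-fold to 1.31-fold. Of 15 genes that regulate class I transcription, 1 was higher and 2 were lower, beside 9.0% and 8.63% of all tested genes. Irf1, an activator of class I and immunoproteasome genes that interferon-gamma induces, measured 42.0, 50.7 and 41.6 CPM in the controls and 65.1, 70.6 and 83.6 CPM in the cachectic mice. All cachectic mice were above all controls, and Irf1 rose 1.63-fold, a log2 fold change of 0.71 (SE 0.15; edgeR, adjusted p = 0.0172; 0.0870 without control replicate 3).

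Irf8, a factor of dendritic and myeloid cells, fell by 0.82 on the log2 scale (adjusted p = 0.0132 from edgeR; 0.0663 without control replicate 3), from a control mean of 27.6 ± 2.42 CPM (SD, n = 3) to 15.6 ± 2.25 CPM (SD, n = 3). Ciita, the class II transactivator and a relative of Nlrc5, fell by 1.87 on the log2 scale (adjusted p = 0.0242 from edgeR), from a control mean of 11.5 ± 0.688 CPM (SD, n = 3) to 3.15 ± 1.88 CPM (SD, n = 3); it shares 25888 bases with Dexi on the other strand. Its adjusted p-value was 0.0667 without control replicate 2, 0.0858 without control replicate 3 and 0.0676 without cachexia replicate 2. Irf2 (log2 fold change 0.06) and Rfx5 (0.39) did not pass the threshold.

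RNA levels of interferon receptors and of genes that interferons raise were also read. Ifng was not tested, with 13, 10 and 9 counts in the controls and 2, 0 and 2 in the cachectic mice. Ifngr1, the ligand-binding chain of the interferon-gamma receptor, rose from a control mean of 263 ± 12.9 CPM (SD, n = 3) to 438 ± 76.7 CPM (SD, n = 3), a log2 fold change of 0.74 (adjusted p = 0.0248 from edgeR). Ifngr2, its signaling chain, fell from a control mean of 40.3 ± 3.28 CPM (SD, n = 3) to 27.1 ± 2.21 CPM (SD, n = 3), by 0.57 on the log2 scale (adjusted p = 0.0235 from edgeR). Each lost its call without single mice, Ifngr1 without control replicate 1 (0.0541), 2 (0.0976) or 3 (0.0943), and Ifngr2 without control replicate 2 (0.0911) or 3 (0.106) or cachexia replicate 1 (0.0646) or 2 (0.0599), all adjusted p-values from edgeR. The other 5 tested genes among the receptors and their kinases gave 0 calls. So 1 of the 7 tested genes was higher and 1 lower, beside 9.0% and 8.63% of all tested genes.

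Of 32 interferon-stimulated genes, 0 were higher in edgeR and limma-voom and 1 in DESeq2, and 3 were lower in edgeR and limma-voom and 4 in DESeq2. Of all tested genes, edgeR called 9.0% higher and 8.63% lower, and the lower calls of this list were near that share. At an unadjusted p-value under 0.05, edgeR gave 2 higher and 6 lower genes of this list. The median log2 fold change of this list was -0.16. Cxcl9, a chemokine that interferon-gamma induces strongly, measured 35.6, 43.9 and 54.1 CPM in the controls and 14.2, 12.8 and 10.2 CPM in the cachectic mice. It fell by 1.84 on the log2 scale (SE 0.20; edgeR, adjusted p = 0.0025), with the groups far apart. Mx1 and Gbp6, an antiviral GTPase gene and a guanylate-binding protein gene, fell by 1.59 and 1.19 on the log2 scale (adjusted p = 0.0337 and 0.0390 from edgeR). For Mx1 these values exceeded 0.05 without any of 5 single mice and for Gbp6 without any of 4, and the highest of them were 0.105 and 0.127. The number of lower genes in this list was 7 without cachexia replicate 2 and 1 without control replicate 2 or 3 or cachexia replicate 1 or 3.

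**Figure D3:**
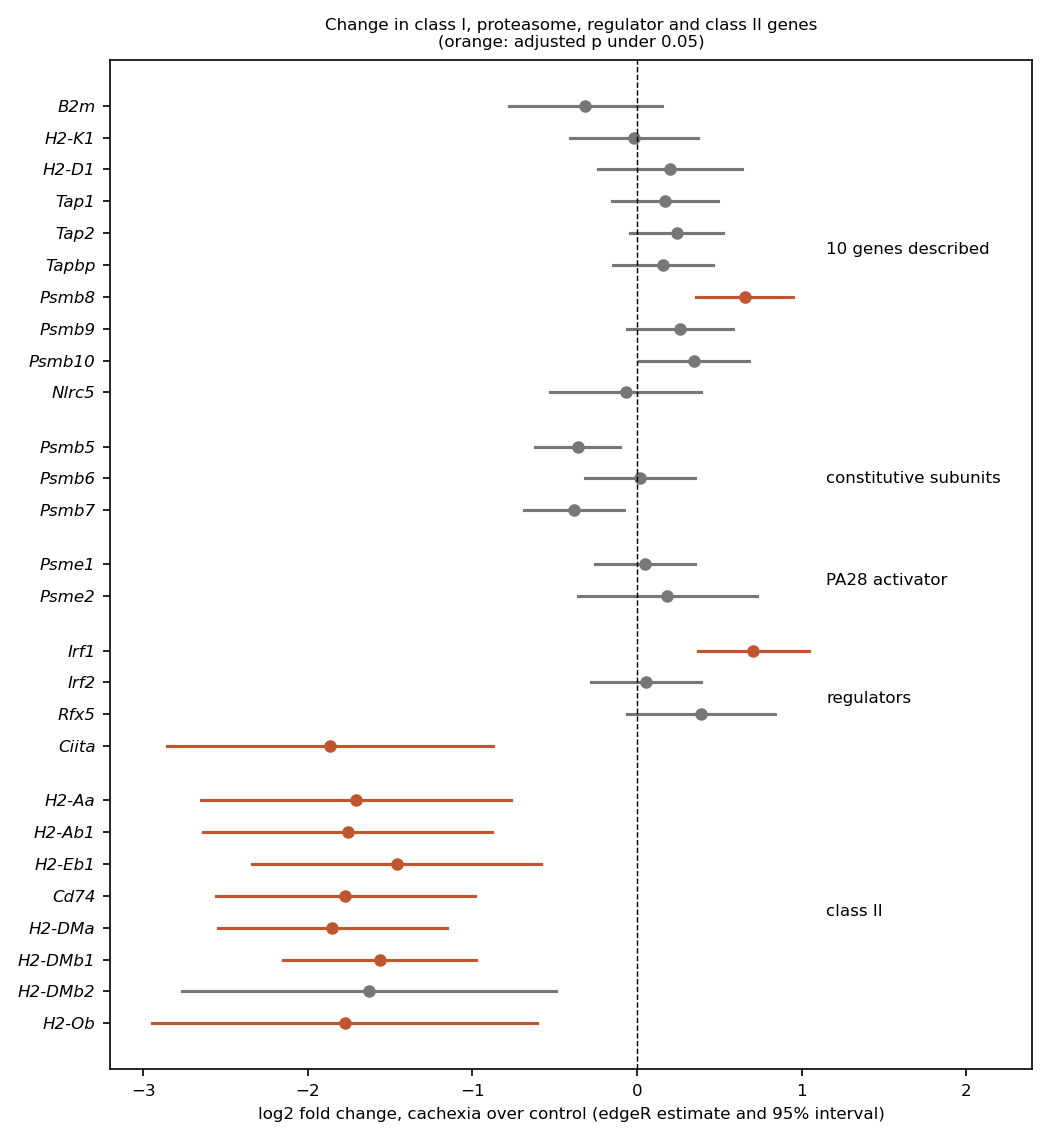
Log2 fold change of cachectic over control mice (horizontal axis) with its 95% interval from edgeR for the 10 genes, the constitutive proteasome subunits, the PA28 activator, 4 regulators and the 8 tested class II genes. Orange marks an adjusted p-value under 0.05: Psmb8 (0.65) and Irf1 (0.71) lie to the right of 0, and Ciita and 7 class II genes to the left.

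Class II molecules present peptides of engulfed proteins and are made mainly by professional antigen presenting cells. Of the 8 tested class II genes, 7 were lower and 0 higher in edgeR (8 lower in DESeq2 and limma-voom, 0 higher in each, and 0 higher at an unadjusted p-value under 0.05), with a median log2 fold change of -1.73 beside 0.18 for the 10 class I genes. Their summed level was 1312 to 1967 CPM in control mice and 304 to 803 CPM in cachectic mice. Of all tested genes, edgeR called 8.63% lower and 9.0% higher. The invariant chain gene Cd74 measured 937, 647 and 782 CPM in the controls and 350, 205 and 138 CPM in the cachectic mice, and it fell by 1.77 on the log2 scale (adjusted p = 0.0136 from edgeR; 0.0516 without control replicate 3). H2-DMa and H2-DMb1, which encode the peptide exchange factor, fell by 1.85 and 1.56 on the log2 scale (adjusted p = 0.00787 and 0.00773 from edgeR), and H2-Ab1, the beta chain of I-A, fell by 1.76 (adjusted p = 0.0201 from edgeR; 0.0724 without control replicate 3 and 0.0571 without cachexia replicate 2). The number of lower class II genes was 4 without control replicate 1 or 2, 2 without control replicate 3 and 3 without cachexia replicate 2.

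The difference between the class I and class II genes was described inside each mouse with ratios chosen after the values were seen. H2-D1 per H2-Ab1 came to 2.62, 3.66 and 2.79 in the controls and to 7.38, 14.0 and 19.3 in the cachectic mice. B2m per Cd74 came to 2.57, 4.16 and 3.57 in the controls and to 6.10, 8.65 and 17.8 in the cachectic mice. Nlrc5 per Ciita came to 3.22, 4.23 and 4.18 in the controls and to 6.47, 16.6 and 33.7 in the cachectic mice. All 3 ratios were higher in 3 of 3 cachectic mice, by 2.07, 1.54 and 2.00 on the log2 scale (exact permutation test, p = 0.1 and adjusted p = 0.1 for each, the smallest possible and above the threshold). Because of how the ratios were chosen, these p-values are no independent test of the difference.

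Among 19 genes of nonclassical class I heavy chains and their relatives, 14 were tested. Of these, 1 was higher and 2 were lower, beside 9.0% and 8.63% of all tested genes. H2-T23 encodes Qa-1, which presents leader peptides of other class I molecules to NK cell receptors. H2-T23 measured 91.4, 92.8 and 79.9 CPM in the controls and 160, 193 and 124 CPM in the cachectic mice. It rose 1.80-fold without overlap, a log2 fold change of 0.85 (SE 0.18; edgeR, adjusted p = 0.0189). Its adjusted p-value was 0.0606 without control replicate 2, 0.0912 without control replicate 3 and 0.05002 without cachexia replicate 1. Of the 14 log2 fold changes 10 were positive, and their median was 0.46.

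Hfe, a class I relative that regulates iron uptake and presents no peptide, fell from a control mean of 114 ± 24.9 CPM (SD, n = 3) to 40.5 ± 9.42 CPM (SD, n = 3), by 1.49 on the log2 scale (adjusted p = 0.00643 from edgeR). Mr1, which presents vitamin B metabolites to MAIT cells, measured 50.9, 52.3 and 53.8 CPM in the controls and 31.3, 33.2 and 19.6 CPM in the cachectic mice. It fell by 0.90 on the log2 scale (adjusted p = 0.0212 from edgeR; 0.0671 without control replicate 2 and 0.0813 without control replicate 3).

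**Figure D4:**
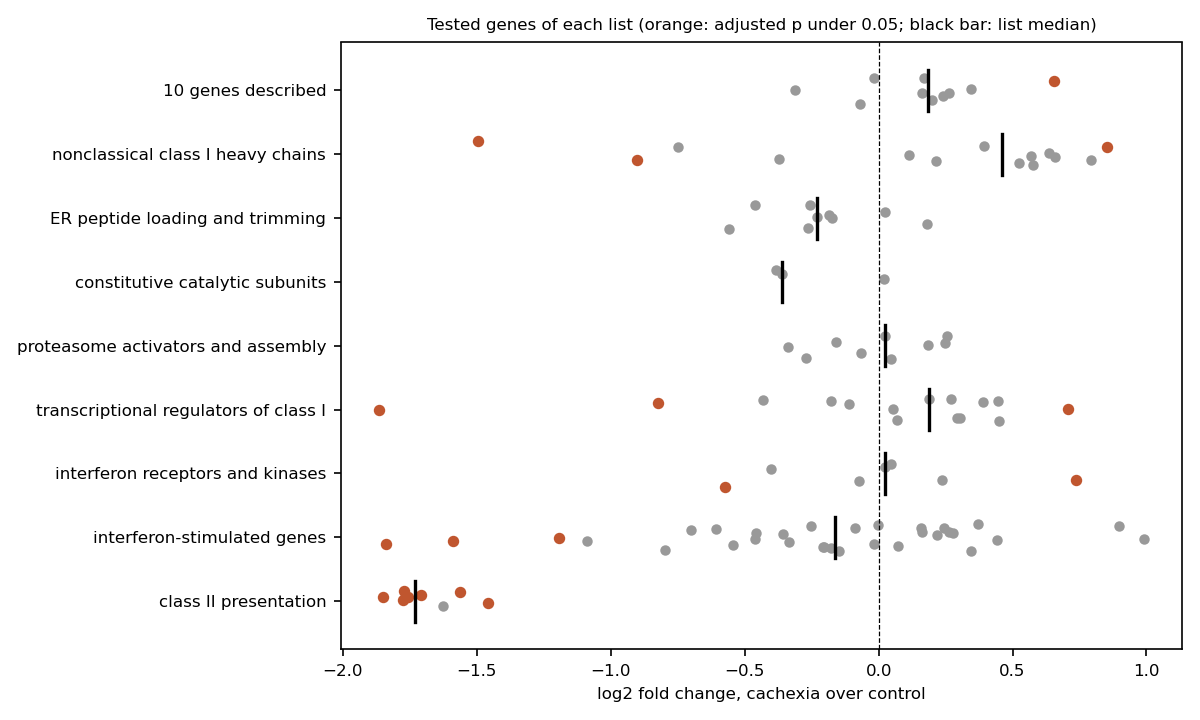
Log2 fold change of cachectic over control mice (horizontal axis) for each tested gene of 9 lists, with the median of a list as a black bar and genes with an adjusted p-value under 0.05 in orange. The 10 class I and immunoproteasome genes lie between -0.31 and 0.65, and the class II genes between -1.85 and -1.46.

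Markers of cell types that carry class I molecules were read beside these values, and their part in the results was not tested. Counts of higher and lower markers are from edgeR at the adjusted threshold unless another tool or the unadjusted p-value is named, and the values in parentheses are log2 fold changes. They stand beside 9.0% higher and 8.63% lower among all tested genes in edgeR. Neutrophil markers summed to 32.2 to 49.2 CPM in control mice and 255 to 755 CPM in cachectic mice. Of the 9 tested, 8 were higher (7 in DESeq2 and limma-voom), among them S100a9 (6.78), S100a8 (5.25), Retnlg (4.95) and Cxcr2 (3.83), and Ly6g had 0 counts in every control mouse. Endothelial markers summed to 1564 to 1650 CPM in control and 2236 to 3361 CPM in cachectic mice. Of 8, 3 were higher, Pecam1 (1.159), Cldn5 (0.75) and Cdh5 (0.74), with 3 in limma-voom, 6 in DESeq2 and 6 at an unadjusted p-value under 0.05.

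T cell markers were sparse, with a sum of 8.37 to 13.4 CPM in control and 3.02 to 5.59 CPM in cachectic mice. Of 6 tested, Cd5 (-2.56) was lower, as 1 was in DESeq2 and limma-voom, and 3 were lower at an unadjusted p-value under 0.05; the most abundant, Cd4 (-1.12) and Cd28 (-1.48), did not pass. Cd8a had 13, 4 and 36 counts in the controls and 6, 2 and 0 in the cachectic mice. NK cell markers summed to 14.9 to 19.1 CPM in control and 4.72 to 18.3 CPM in cachectic mice, with the highest cachectic value in replicate 2. Of 8, Klrd1 (-1.83) was lower and Gzma (-0.17) did not pass, with 2 lower in DESeq2 and limma-voom and 5 at an unadjusted p-value under 0.05. B cell markers summed to 7.85 to 13.8 and 3.97 to 8.66 CPM; 0 of 6 passed in edgeR, Cd79b (-1.24) and Ms4a1 (-1.16) included, while 1 was lower in DESeq2 and limma-voom and 2 were lower and 0 higher at an unadjusted p-value under 0.05.

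Macrophage markers summed to 889 to 1107 CPM in control and 703 to 1136 CPM in cachectic mice. Of 8, Cd163 (0.93) was higher and Mrc1 (-0.90) lower, with 1 in each direction in DESeq2 and limma-voom, and at an unadjusted p-value under 0.05 there were 1 higher and 2 lower; Csf1r (-0.34) did not pass. Dendritic cell markers summed to 50.4 to 58.2 and 49.4 to 77.2 CPM and did not share a direction, 3 of 7 values being positive. Xcr1 (-3.41), at 2.01 ± 0.446 CPM (SD, n = 3) in control mice, was lower, with 2 lower in DESeq2 and 1 in limma-voom. The most abundant, Zbtb46 (0.56), was at 31.0 ± 3.51 CPM (SD, n = 3) in control and 45.8 ± 10.2 CPM (SD, n = 3) in cachectic mice without overlap but did not pass (edgeR, adjusted p = 0.07895), and Cd209a (-0.82) did not pass; at an unadjusted p-value under 0.05, 1 was higher and 2 were lower.

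Adipocyte markers summed to 22562 to 34428 CPM in control and 23034 to 32053 CPM in cachectic mice. Of 8, Pnpla2 (1.08) and Cidec (0.87) were higher and 0 lower in edgeR, while 2 were lower in DESeq2, 1 in limma-voom and 2 at an unadjusted p-value under 0.05. Plin1 (-1.44) and Lpl (-0.81) were lower in every cachectic mouse than in every control without passing in edgeR, and Fabp4 (0.36) overlapped. Mesothelial markers summed to 271 to 361 and 155 to 353 CPM, and 0 of 6 passed in edgeR, DESeq2 and limma-voom, Upk3b (-0.50) and Msln (0.62) included, with 1 lower at an unadjusted p-value under 0.05. Progenitor markers summed to 850 to 896 and 609 to 732 CPM. Of 6, Ly6a (0.97) was higher and Dpt (-1.63) and Pi16 (-1.72) lower, with 1 higher and 3 lower in DESeq2, in limma-voom and at an unadjusted p-value under 0.05, and Cd34 (-0.03) did not pass. Erythroid markers summed to 252 to 451 and 1331 to 2850 CPM, and 5 of 5 were higher in edgeR, DESeq2 and limma-voom, among them Hbb-bs (2.95), Hba-a1 (2.48), Alas2 (2.50) and Hbb-bt (3.17).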

How the data were processed

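RNA-seq of eWAT from 3 cachectic and 3 control mice was analyzed, with samples grouped by their titles. The authors filtered 150 bp paired-end reads, used Hisat2 for alignment and featureCounts 1.5.0-p3 for counting (submitters' notes), and deposited the raw counts, which are not normalized. Per the labels the genome build is mm9, but 99.9% of the deposited gene identifiers are in GENCODE M21 (GRCm38), 98.3% of them (and 7 of the 10 genes) at the same coordinates, so the coordinates given are those of the deposited file, read as GRCm38. Strand and multi-mapping settings are not given in the sources used here. The authors also deposited FPKM values, from count and gene length. Their table of called genes (fold changes, p-values and 6 columns of sample values) was not used.

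Counts were tested with edgeR 4.0.16 in R 4.3.3 (filterByExpr, TMM factors between 0.937 and 1.07, quasi-likelihood test without covariates, and p-values adjusted by Benjamini-Hochberg over 16003 genes at a threshold of 0.05). The methods of the study use DESeq2, which was an alternative here. The standard error is the log2 fold change divided by the square root of F, and 95% intervals use the t distribution of the test. The biological coefficient of variation was 0.264. Ratios and sums were tested by two-sided exact permutation tests (SciPy 1.17.1), which with 3 against 3 cannot give less than 0.1. The labels give a number to each sample but no other detail, and each sample was read as a single mouse. The p-values measure the spread between these samples. All 15 pairs of libraries differed beyond sampling noise. The 10 genes, the lists and the motifs were chosen with earlier results of these data known. Named genes are the 10 genes, Psmb5 to Psmb7, Psme1, Psme2, Irf1, Irf2, Rfx5, Ciita, the called genes of each other list with the smallest p-values (up to 4 in each direction), and the 2 genes of each marker list with the highest mean CPM; Dexi, Zbtb22, Calr, Pdia3, Erap1, Plin1, Cd8a, Ly6g and Ifng were named in addition after their values were seen. A further gene of the rule is not reported here.

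Alternatives were RLE size factors, plain library totals, no filter, at least 10 counts in every sample, DESeq2 1.42.0, limma-voom, limma 3.58.1 on log2-transformed FPKM (pseudocounts 1 and 0.1), each sample left out, and a replicate block. The test scripts were tested on simulated data.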

Additional observations from a re-analysis of the deposited data

How the results depend on the processing

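Of the 15 other settings, all but the ones without control replicate 2 or 3 called Psmb8 higher, and none called any of the 10 genes lower. With a sample left out, the number of these genes called higher was 0 to 1, and the number of all genes called was 828 to 2339 (2821 with all samples). DESeq2 called 3884 genes, and plain library totals moved the median log2 fold change of all tested genes from -0.00 to 0.05. The log2 fold change of H2-K1 turned with plain totals (0.027) and ran from -0.080 to 0.043 with a sample left out (turned without control replicate 1), that of Nlrc5 ran from -0.21 to 0.090 (turned without control replicate 3, 0.04, and cachexia replicate 1), and that of Psmb6 turned on log2 FPKM (-0.0040 with a pseudocount of 1 and -0.0042 with 0.1) and ran from -0.047 to 0.14 (turned without control replicate 2, cachexia replicate 1 or cachexia replicate 3). Leaving out a sample also turned the ratios Tap1 per Tap2 (-0.17 to 0.031) and Psme1 per Psme2 (-0.42 to 0.11); the other planned ratios and both sums kept their direction.

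DESeq2 called 2 nonclassical heavy chains higher (1 in edgeR), 1 constitutive subunit lower (0), 1 activator or assembly gene lower (0), 2 regulators higher (1) and 1 interferon-stimulated gene higher (0). With samples left out, the calls were 0 to 2 higher and 1 to 3 lower among nonclassical heavy chains, 0 to 2 lower in peptide loading, 0 to 1 higher and 0 to 2 lower among regulators, 0 to 1 in each direction among interferon receptors and kinases, 0 to 1 higher and 1 to 7 lower among interferon-stimulated genes, and 2 to 7 lower among class II genes. Deviations of same-numbered mice were only weakly correlated (correlations 0.0480, 0.0101 and 0.0224). Every sample correlated best with its own number except control replicate 2 and cachexia replicate 3. Whether the numbers pair mice cannot be told from these values, and the labels state no pairing. With a replicate block 1881 genes were called, Psmb8 kept its call (adjusted p = 0.0351 in edgeR), and among interferon receptors and kinases 0 were called in either direction. The cause of these changes was not tested. The length of the longest coding transcript, an alternative chosen after the data were seen, changed the order of levels among 5 of the 10 genes. Ifng, Cd8a and Ly6g had too few counts to test.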
